A study of Mus musculus with 8 samples.

Results

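The endoplasmic reticulum chaperones and the unfolded protein response were followed as a set of 32 genes, chosen by symbol from the 19787 genes of a single-nucleus UMI count matrix of the mouse spinal cord. All 32 symbols were found. The set holds 2 lectin chaperones, 9 genes of the Hsp70 and Hsp90 system of the endoplasmic reticulum, 6 foldases, 6 stress sensors and transcription factors, 7 genes of endoplasmic reticulum associated degradation and 2 genes of the translocon. Proteins that are secreted or sit in membranes enter the endoplasmic reticulum through the translocon and are folded there by chaperones and foldases. When unfolded proteins pile up, the sensors IRE1, PERK and ATF6 switch on the unfolded protein response, which raises transcription of chaperone, foldase and degradation genes and, when prolonged, of the pro-death factor CHOP. Neurons rely on this machinery for the receptors, channels and adhesion proteins of long axons, and injury of an axon is a known trigger of the response.

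Nuclei came from the low thoracic cord of wild-type C57BL/6 mice, a genotype, strain and level that all groups share, and were counted with a droplet method of 10x. Experiment 1 gave 2 untraced and 2 traced libraries from 2 numbered uninjured animals, where traced neurons carried GFP and project to the lumbar walking centres. Experiment 2 gave 2 libraries of mice with a lateral hemisection of the cord and natural repair, and 1 library of uninjured mice, called here the uninjured control library. Experiment 3 gave 1 library of regenerating GFP neurons. The sources used here do not give the time after injury, the age and sex of the mice or the number of mice in a library. The libraries of a group are separate samples in the labels, but nothing states that hemisection libraries came from separate animals, so p-values measure the spread between libraries. Counts in nuclei are RNA that had not left the nucleus or clung to it, and they are no measure of protein.

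The deposited annotation calls 4076 of the 12447 nuclei neurons. Neurons of the 7 libraries other than the regenerating one numbered between 25 and 2148 per library, with 333459 to 20739862 UMIs in all and medians of 5767 to 16489.5 UMIs per nucleus. The regenerating library held 238 neurons at a median of 488 UMIs, and its values are given in the closing section only. Levels are in CPM, a count divided by all UMIs that the same class of nuclei had in that library and put on a fixed scale. Neuron markers summed to between 2882 and 3715 CPM in the neurons of those 7 libraries. The uninjured control library stood apart from the other 6 in several ways. Its neurons held 4639 CPM of mitochondrially encoded transcripts against 590 to 1706 in the others, 816 CPM of oligodendrocyte markers against 87.0 to 301, and 4223 CPM of ribosomal protein transcripts against 1325 to 2411. The share of neurons among nuclei was 89.6% in hemisection replicate 1 and 7.15% in replicate 2. Of 7716 distinct barcodes 4 occurred in more than 1 library, and 4727 nuclei had no barcode sequence. These were the 238 regenerating neurons and all 4489 nuclei of the uninjured control library that are not neurons, while the neurons of that library had barcodes. The sources used here do not say whether its neurons and its other nuclei came from the same preparation.

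Promoters of the set carry a known element of the response, shown here because the 3 members with the smallest p in neurons hold it. The ERSE, bound by NF-Y and ATF6, reads CCAAT, then 9 bases of any kind, then CCACG. It was searched on both strands from 250 bases before to 50 bases after each gene start of RefSeq (GRCm38.p6), where 28 of the 32 members were found. The ERSE was in 9 of these 28 windows (32.1%) and in 39 of all 32851 windows (0.119%). Since the element is known from genes of this response, its share among the members is background and not a result of these data. The 250 bases upstream of Calr, Hspa5 and Hsp90b1, the 3 members with the smallest p after hemisection against the uninjured control library, follow from 5′ to 3′ on the strand of the gene, with the fixed letters of the ERSE in capitals. They lie at chr8:84846932-84847181 on the minus strand, chr2:34771840-34772089 on the plus strand and chr10:86705445-86705694 on the minus strand. Calr holds the element in reverse and Hsp90b1 holds 1 copy in each direction.
Calr: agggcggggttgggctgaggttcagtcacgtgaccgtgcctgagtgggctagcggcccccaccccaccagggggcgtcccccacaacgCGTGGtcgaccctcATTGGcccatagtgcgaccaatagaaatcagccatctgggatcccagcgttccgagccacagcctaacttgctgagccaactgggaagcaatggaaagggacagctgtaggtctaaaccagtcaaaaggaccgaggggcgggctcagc
Hspa5: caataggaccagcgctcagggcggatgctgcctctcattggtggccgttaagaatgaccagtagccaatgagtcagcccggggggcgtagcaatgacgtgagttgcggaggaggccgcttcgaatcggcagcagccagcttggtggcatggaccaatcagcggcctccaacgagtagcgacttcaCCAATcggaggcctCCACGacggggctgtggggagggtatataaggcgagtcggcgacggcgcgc
Hsp90b1: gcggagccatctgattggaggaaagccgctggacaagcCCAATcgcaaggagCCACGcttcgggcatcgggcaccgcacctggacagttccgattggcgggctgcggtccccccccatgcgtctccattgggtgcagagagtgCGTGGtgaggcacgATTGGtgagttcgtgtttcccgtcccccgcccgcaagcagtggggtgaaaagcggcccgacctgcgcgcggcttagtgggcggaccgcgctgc
The sites of 3 other members that were called in neurons follow alone, on the strand of the gene, and their 9 spacer bases differ. They lie at chr11:50325800-50325818 (Canx), chr12:17266491-17266509 (Pdia6) and chr14:118937827-118937845 (Dnajc3).
Canx: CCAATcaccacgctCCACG
Pdia6: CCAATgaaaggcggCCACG
Dnajc3: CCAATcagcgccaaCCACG
The remaining ERSE windows were those of Syvn1, Creld2 and Derl3. The related ERSE-II, which reads ATTGG, then 1 base of any kind, then CCACG, was in the windows of Herpud1 and Dnajb11 and in 0.0365% of all windows. All motifs were read on both strands. The UPRE core TGACGTGG was in 0 of the 28 member windows and in 0.676% of all windows. The C/EBP-ATF element read as TGATGCAA was in the window of Herpud1 and in 0.895% of all windows. No match of a motif overlapped another. Of the 13 members found in the table that were called lower below, 6 hold the ERSE, and of the 12 that were tested and not called, 2 hold it. A link between the element and the calls was not tested. A match of letters is a description of the window and not a bound site.

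The first comparison set neurons after hemisection and natural repair against those of the uninjured control library. Most of the members called lower after hemisection were chaperones and foldases, while the sensors, the transcription factors and the degradation genes were not called in either direction. The difference between these groups of members was not itself tested. Calreticulin, BiP, GRP94, the foldase gene Fkbp2 and 10 further members fell, by 0.91 to 2.25 on the log2 scale. Of 29 members tested, 14 were called lower and 0 higher at an adjusted p under 0.05 (edgeR quasi-likelihood test, Benjamini-Hochberg over 11601 genes), where 4.61% of all genes tested were called lower and 0.948% higher. The median log2 fold change of the 29 members was −0.91 and that of all genes 0.03. The 14 were both lectin chaperones, 5 of the 8 tested genes of the Hsp70 and Hsp90 system, all 6 foldases and the 1 tested translocon gene, against 0 of 6 sensors and factors and 0 of 6 tested degradation genes. At an unadjusted p under 0.05 the last 2 groups also had 0, and DESeq2 called 0 in both. There is 1 uninjured control library, so its condition and the library itself cannot be told apart. In all 14 called genes it lay above each of the 6 other deep libraries, uninjured ones included. That held for 18 of the 29 tested members, where 20.9% of all genes tested had it. The count of 14 became 6 without hemisection replicate 1, 7 without replicate 2 and 4 with DESeq2, and Calr, Hspa5, Hsp90b1 and Fkbp2 were in each of these counts.

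Calr encodes calreticulin, a calcium-binding chaperone that holds newly made glycoproteins. It stood at 186 CPM in the uninjured control library, at 34.9 and 39.2 CPM in hemisection replicates 1 and 2, at 46.2 and 29.1 CPM in untraced replicates 1 and 2 and at 55.1 and 57.0 CPM in traced replicates 1 and 2. The uninjured control library was alone at the top and the hemisection libraries lay among the other uninjured ones. The log2 fold change from the uninjured control library to hemisection was −2.25 (95% interval −2.78 to −1.73, adjusted p = 7.5e-05). Canx encodes calnexin, the membrane-bound partner of calreticulin. Its levels were 234 CPM in the uninjured control library, 103 and 108 CPM after hemisection, 133 and 76.1 CPM in untraced and 103 and 120.0 CPM in traced neurons. Only the uninjured control library stood outside a shared range, and the log2 fold change was −1.04 (95% interval −1.56 to −0.52, adjusted p = 0.0201).

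Hspa5 encodes BiP, the Hsp70 chaperone that also keeps the sensors silent. BiP transcripts were at 236 CPM in the uninjured control library, at 60.8 and 46.8 CPM after hemisection, at 99.5 and 53.7 CPM in untraced and at 66.1 and 75.0 CPM in traced neurons. Hemisection replicate 2 was the lowest of the 7 and replicate 1 lay within the range of experiment 1. The log2 fold change was −1.99 (95% interval −2.54 to −1.43, adjusted p = 3.7e-04). Hsp90b1 encodes GRP94, the Hsp90 of the endoplasmic reticulum, which folds receptors and integrins. Its levels were 300.1 CPM in the uninjured control library, 81.6 and 66.9 CPM after hemisection, 129 and 81.7 CPM in untraced and 73.7 and 114 CPM in traced neurons. Again the uninjured control library stood alone, and hemisection replicate 2 was lowest. The log2 fold change was −1.88 (95% interval −2.41 to −1.35, adjusted p = 3.7e-04).

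Dnajb9, a J-domain partner of BiP that is a target of XBP1, was at 35.8 CPM in the uninjured control library, at 10.2 and 6.69 CPM after hemisection, at 11.7 and 3.36 CPM in untraced and at 8.95 and 11.996 CPM in traced neurons. The hemisection values lay inside the untraced range, and the log2 fold change was −1.85 (adjusted p = 0.0124). Manf encodes a secreted neurotrophic factor that binds BiP. Manf was at 116 CPM in the uninjured control library, at 42.6 and 28.7 CPM after hemisection, at 63.6 and 47.0 CPM in untraced and at 73.0 and 21.0 CPM in traced neurons. Both hemisection values lay under both untraced ones but not under both traced ones, and the log2 fold change was −1.52 (adjusted p = 0.0143). In GENCODE, whose Manf model is longer than the 3186 bases of the RefSeq locus, Manf overlaps Dcaf1 on the opposite strand over 42681 bases, and the sources used here do not say whether counting used strand. Dnajc3, which encodes the BiP co-chaperone p58IPK, fell by 0.91 (adjusted p = 0.0297). Dnajb11 (log2 fold change −1.25, adjusted p = 0.0684), Hyou1 (−0.87, adjusted p = 0.131) and Creld2 (−0.66, adjusted p = 0.555) were not called, with 95% intervals of −2.04 to −0.45, −1.55 to −0.20 and −1.81 to 0.48.

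**Figure D1:**
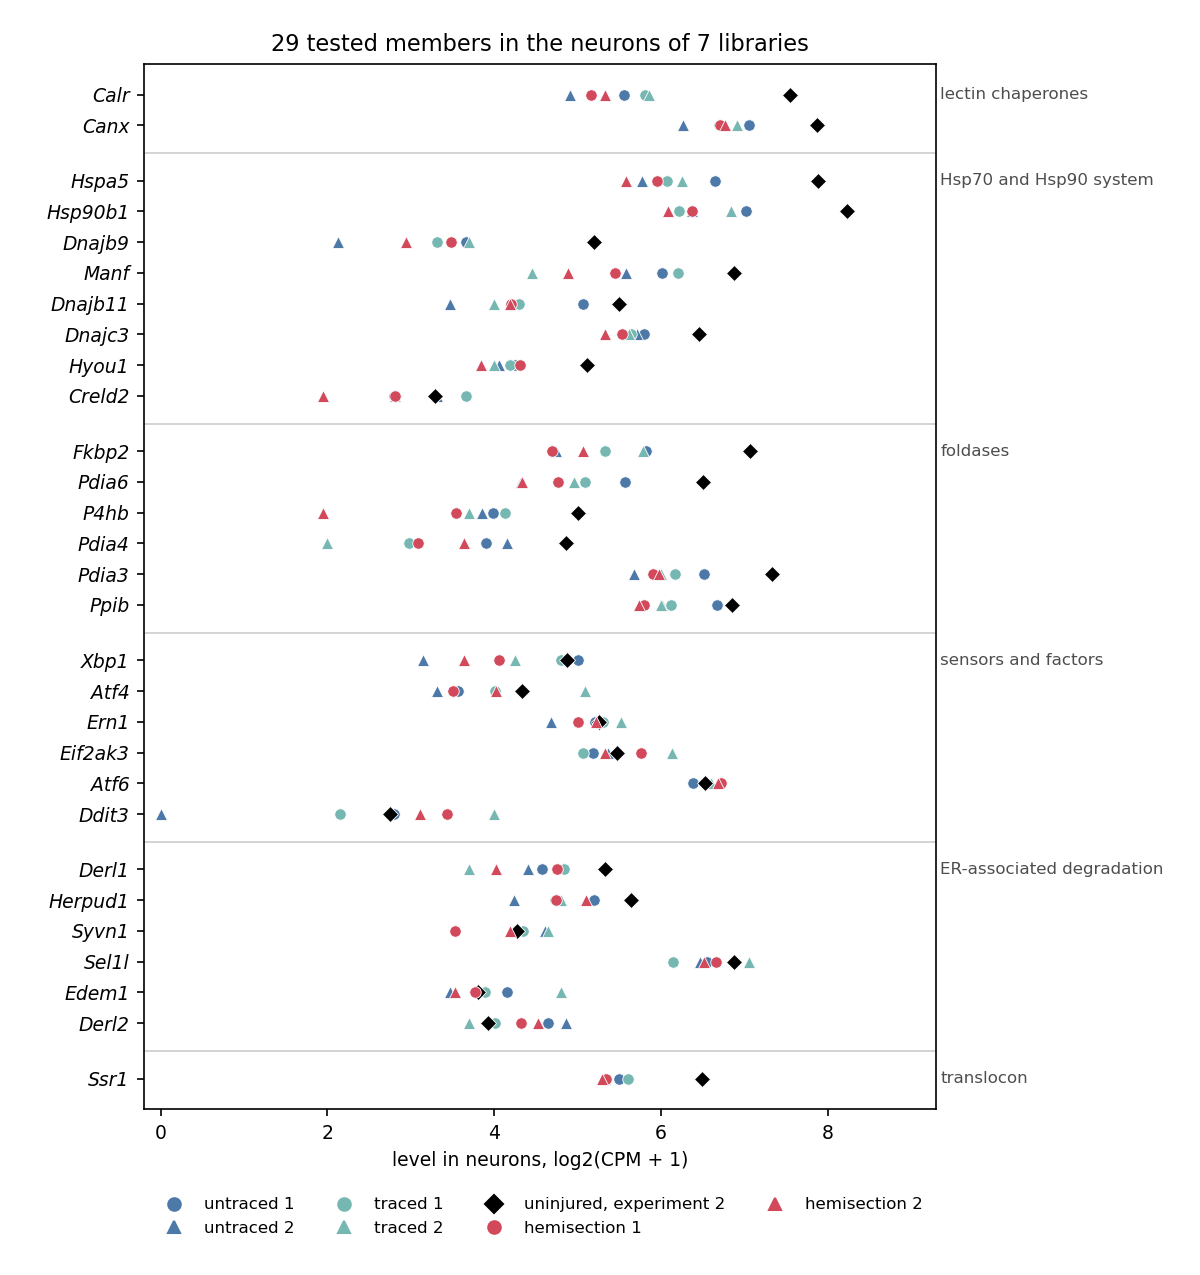
Level of each of the 29 tested members in the neurons of 7 libraries, as log2(CPM + 1), grouped by role, with 1 point per library and colours by group. For the called chaperones and foldases the black diamond of the uninjured control library lies to the right of the other points, as in Calr at 186 CPM against 29.1 to 57.0 CPM, while for Atf6 all 7 points lie between 82.7 and 104 CPM.

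Foldases make disulphide bonds or turn proline bonds. Fkbp2, a prolyl isomerase, was at 134 CPM in the uninjured control library, at 24.8 and 32.5 CPM after hemisection, at 55.6 and 25.7 CPM in untraced and at 39.3 and 54.0 CPM in traced neurons. Hemisection replicate 1 was the lowest library and replicate 2 lay between the untraced ones, with a log2 fold change of −2.19 (95% interval −2.84 to −1.53, adjusted p = 5.8e-04). Pdia6, a disulphide isomerase that also damps IRE1, was at 89.8 CPM in the uninjured control library, at 26.3 and 19.1 CPM after hemisection, at 46.5 and 19.0 CPM in untraced and at 33.1 and 30.0 CPM in traced neurons. The hemisection values lay inside the untraced range, and the log2 fold change was −1.81 (95% interval −2.49 to −1.12, adjusted p = 0.00338). Pdia3 encodes ERp57, the isomerase that works with calreticulin and calnexin. Its levels were 159.9 CPM in the uninjured control library, 58.8 and 62.1 CPM after hemisection, 90.4 and 50.3 CPM in untraced and 70.9 and 63.0 CPM in traced neurons. The hemisection libraries were within the untraced range, and the log2 fold change was −1.30 (adjusted p = 0.00673).

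P4hb encodes protein disulphide isomerase itself. It was at 31.1 CPM in the uninjured control library, at 10.7 and 2.87 CPM after hemisection, at 14.8 and 13.4 CPM in untraced and at 16.5 and 11.996 CPM in traced neurons. Both hemisection libraries were the lowest, replicate 2 on 3 counts, and the log2 fold change was −1.76 (adjusted p = 0.0178). Pdia4, another isomerase, fell by 1.62 (adjusted p = 0.0231), although its lowest level, 3.00 CPM, was in traced replicate 2. Ppib, which encodes cyclophilin B, was at 115 CPM in the uninjured control library and 54.7 and 52.6 CPM after hemisection, and untraced replicate 1 reached 101 CPM. It fell by 0.99 (adjusted p = 0.0261). In GENCODE its locus overlaps Snx22 on the opposite strand by 1448 bases. Of the translocon, Ssr1, which encodes a subunit of the translocon-associated complex, was at 89.0 CPM in the uninjured control library and between 38.2 and 47.5 CPM in the 6 others. Ssr1 fell by 1.08 (95% interval −1.59 to −0.57, adjusted p = 0.0142).

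Of the sensors and their transcription factors none was called, although the value of Xbp1 (−0.88) was close to that of the called Dnajc3 (−0.91). Atf6 encodes the sensor that is cut in the Golgi to give a transcription factor. It was at 91.2 CPM in the uninjured control library, at 104 and 102 CPM after hemisection, at 82.7 and 94.0 CPM in untraced and at 90.2 and 96.0 CPM in traced neurons. The hemisection values were the highest by a small margin, and the log2 fold change of 0.29 was not called (95% interval −0.18 to 0.76). Ern1 encodes IRE1, the sensor that splices the Xbp1 transcript. It was at 37.2 CPM in the uninjured control library, at 31.1 and 36.3 CPM after hemisection, at 35.9 and 24.6 CPM in untraced and at 38.6 and 45.0 CPM in traced neurons, a log2 fold change of −0.07 (95% interval −0.67 to 0.53). Eif2ak3 encodes PERK, the sensor that slows translation. PERK transcripts were at 43.4 CPM in the uninjured control library, at 53.4 and 39.2 CPM after hemisection, at 35.3 and 40.3 CPM in untraced and at 32.4 and 69.0 CPM in traced neurons, a log2 fold change of 0.25 (95% interval −0.40 to 0.89). For both sensors the groups overlapped, and the intervals leave out the falls of BiP and calreticulin.

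Xbp1, the transcription factor downstream of IRE1, was at 28.4 CPM in the uninjured control library, at 15.7 and 11.5 CPM after hemisection, at 31.1 and 7.83 CPM in untraced and at 26.9 and 18.0 CPM in traced neurons. The untraced replicates alone spanned all 7 values, and the log2 fold change of −0.88 was not called (95% interval −1.79 to 0.03, adjusted p = 0.281). Splicing of Xbp1 cannot be seen in gene counts. Atf4, the factor whose translation PERK favours, was at 19.1 CPM in the uninjured control library, at 10.3 and 15.3 CPM after hemisection, at 10.8 and 8.95 CPM in untraced and at 15.2 and 33.0 CPM in traced neurons (log2 fold change −0.59, 95% interval −1.45 to 0.27). Ddit3 encodes CHOP, the pro-death factor of a prolonged response. It was at 5.74 CPM in the uninjured control library, at 9.83 and 7.65 CPM after hemisection, at 5.99 CPM and 0 counts in untraced and at 3.44 and 15.0 CPM in traced neurons. The 0 counts of untraced replicate 2 allow up to 3.36 CPM, and the log2 fold change of 0.76 had a 95% interval of −0.73 to 2.26, so a change of either sign was not detectable at this depth.

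Genes of endoplasmic reticulum associated degradation, which pull misfolded proteins out for destruction, were not called. Sel1l and Syvn1 encode the core of the HRD1 ubiquitin ligase, and their log2 fold changes were −0.17 (95% interval −0.71 to 0.38) and −0.44 (−1.25 to 0.37). The largest fall in value was that of Derl1, which encodes a derlin channel protein, at −0.71 (95% interval −1.42 to 0.01), followed by Herpud1, an adaptor of the ligase, at −0.68 (−1.35 to 0.00). Derl2, the second derlin, was at 0.60 (−0.12 to 1.33), and Edem1, which encodes a mannosidase-like protein that marks glycoproteins for degradation, was at −0.01 (−0.85 to 0.83). The derlin genes thus had values of opposite sign, with intervals that overlap. Derl3, Sdf2l1 and Sec61b did not pass the filter on low counts and were not tested. Their highest level in the neurons of any deep library was 0.737 CPM, 7.23 CPM and 7.23 CPM.

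The second reference was the untraced fraction of experiment 1, and against it the members were not called. In the edgeR quasi-likelihood test 0 of the 29 were called, where 0.19% of all genes tested were called in either direction. At an unadjusted p under 0.05 there were 4 members, all lower, and DESeq2 called 0 with 0 at an unadjusted p under 0.05. The median log2 fold change of the members was −0.27 and that of all genes −0.02. Without untraced replicate 1 the members' median was 0.11, with 10 of 29 values below 0 in place of 20, so its direction rests on that library. The members with the smallest p were Ppib at −0.64 (95% interval −1.12 to −0.17), Fkbp2 at −0.67 (−1.30 to −0.04) and Hsp90b1 at −0.50 (−0.98 to −0.02), with adjusted p of 0.974, 1.00 and 1.00. Calr, the member with the smallest p against the uninjured control library, was here at −0.11 (95% interval −0.62 to 0.40). In CPM, Calr was at 37.0 ± 3.05 after hemisection and 37.6 ± 12.1 in untraced neurons, and Hspa5 was at 53.8 ± 9.87 and 76.6 ± 32.4 (SD, n = 2 each). For 19 of the 32 members both hemisection values lay inside the range of the 4 libraries of experiment 1, for 4 both lay below it and for 1, Atf6, both lay above it. These numbers include the 3 members that were not tested. The same shares over all genes were not counted, so the numbers describe the set only.

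The uninjured references themselves differed in some members. The uninjured control library was above untraced neurons in Calr by 2.14, Dnajb9 by 1.89, Fkbp2 by 1.52, Hspa5 by 1.47, Hsp90b1 by 1.38, Pdia3 by 1.03, Canx by 1.03 and Ssr1 by 0.99 on the log2 scale. These 8 of the 29 tested members were called higher (adjusted p between 2.6e-04 and 0.0467), where 2.07% of all genes tested were called higher, and 0 were called lower. All 8 are among the 14 members called lower after hemisection, in a comparison with the same lone library. Pdia6 at 1.24 (adjusted p = 0.0552) was just outside the threshold. The count of 8 became 5 without untraced replicate 2, 5 without hemisection replicate 1 and 3 with DESeq2. The comparisons share libraries, the hemisection ones in the first pair and the uninjured control library in the first and the last, so they are not independent.

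**Figure D2:**
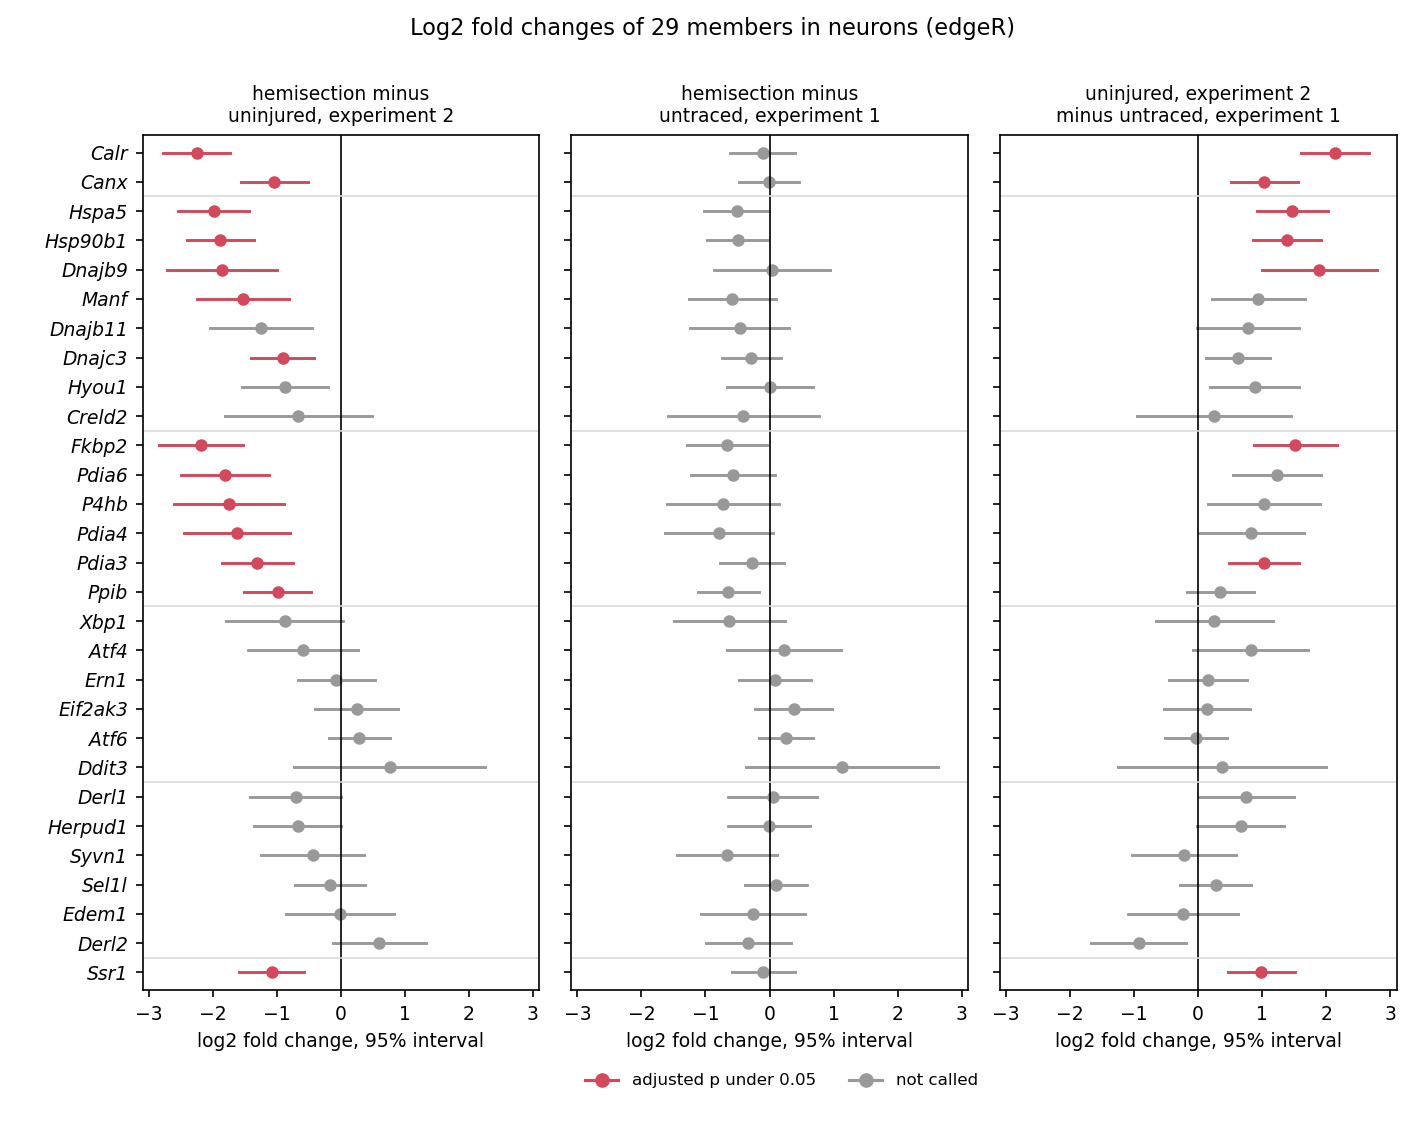
Log2 fold changes with 95% intervals of the 29 tested members in neurons, for hemisection minus the uninjured control library, hemisection minus untraced, and the uninjured control library minus untraced, with called members in red. The left panel has 14 red intervals and the right one 8, with Calr at −2.25 and 2.14, and none is red in the middle panel, where Calr is at −0.11.

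Within experiment 1, traced neurons did not differ detectably from untraced ones in the set. Of the 29 tested members 0 were called (edgeR), where 0.362% of all genes tested were called, 2 had an unadjusted p under 0.05, and DESeq2 called 0 with 0 at an unadjusted p under 0.05. The smallest p values were those of Pdia4 at −1.34 (95% interval −2.45 to −0.23), Derl2 at −0.87 (−1.68 to −0.05) and Atf4 at 0.94 (−0.05 to 1.93), with adjusted p of 0.454, 0.567 and 0.641. The summed level of the 32 members was 1144 and 1260 CPM in traced and 1381 and 972 CPM in untraced neurons, so the fractions overlapped.

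Part of a wider list of the same machinery also differed between libraries in neurons. Of 94 tested genes in a list of other endoplasmic reticulum proteostasis genes, 25 fell from the uninjured control library to hemisection and 0 rose (7 by DESeq2), where 4.61% of all genes tested fell, with a median of −0.57. Against untraced neurons 0 were called (4 at an unadjusted p under 0.05 in edgeR, 0 by DESeq2), and 13 were higher in the uninjured control library than in untraced neurons (2 by DESeq2), where 2.07% of all genes tested were. The 6 with the smallest p were Sec11c, a signal peptidase subunit, at −2.56, Rpn1, of the oligosaccharyltransferase, at −2.17, Krtcap2, of the same enzyme, at −2.37, Tmed2, a cargo receptor, at −2.04, Bcap31 at −2.04 and Selenok at −1.57. Of 18 tested genes of the integrated stress response, which ATF4 drives, 0 were called against the uninjured control library (2 at an unadjusted p under 0.05, 0 by DESeq2). Eif2ak2, which encodes the RNA-activated kinase PKR of that list, was higher after hemisection than in untraced neurons, by 3.23 (adjusted p = 0.0031), and higher in the uninjured control library than in untraced neurons by 1.89 (adjusted p = 0.0464). Of 26 tested cytosolic and mitochondrial chaperones 4 were lower against the uninjured control library, Hsp90aa1 by 1.54, Cryab by 2.68, Hspa8 by 1.73 and Hsp90ab1 by 1.17. DESeq2 called 1 of the 25 that had an adjusted p.

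Some RNA of other compartments and cell types moved along with these genes, and some did not or went the other way. All 13 mitochondrially encoded transcripts fell from the uninjured control library to hemisection, with a median log2 fold change of −2.86. Of these mt-Atp6 was at −3.53 and mt-Nd2 at −3.60, and DESeq2 called the 11 that had an adjusted p. Of 76 tested ribosomal protein genes 16 were lower, among them Rps29 at −1.99, while DESeq2 called 1 of the 69 that had an adjusted p. Of 10 oligodendrocyte markers, none of which should be made by neurons, 9 were lower in edgeR. DESeq2 called 2 of the 4 that had an adjusted p. The sum of the 10 was 816 CPM in the uninjured control library, 109 and 198 CPM after hemisection and 261 and 301 CPM in untraced neurons. None of the 10 was at 0 in these 5 libraries. The sum of 7 astrocyte markers was 150.1 CPM in the uninjured control library, of which Slc1a2 gave 98.1 CPM, against 92.9 and 88.9 CPM after hemisection. Gja1 (−3.40) and Aqp4 (−2.44) were called lower by edgeR. DESeq2 called 0 astrocyte markers, with 1 that had an adjusted p. Of 9 endothelial and vascular markers 3 were tested and 0 called (0 at an unadjusted p under 0.05 in edgeR, 0 by DESeq2). Vtn had 112 counts, Ly6c1 43 and Cldn5 37 in the uninjured control library, against 2, 0 and 0 in hemisection replicate 1 and 0 in replicate 2 and in the 4 libraries of experiment 1. These counts are not scaled to depth. Neurons held 20739862 UMIs in the uninjured control library, 8141448 and 1046173 after hemisection and 333459 to 3508523 in experiment 1. A count of 0 in the shallowest of these libraries therefore says little. The sum of 10 microglia markers was 206 CPM in the uninjured control library, 144 and 323 CPM after hemisection and 101 and 157 CPM in untraced neurons. Single microglia markers did differ between hemisection and the uninjured control library. Of 8 tested, 3 were called by edgeR and 1 by DESeq2, and 7 had an unadjusted p under 0.05 in edgeR. Of 5 markers of plasma and B cells, cells rich in these chaperones, 3 were tested. Igkc (7.40) and Ighm (1.68) were higher after hemisection than in the uninjured control library, and Jchain at 3.34 (adjusted p = 0.0544) was not called. DESeq2 called 1 of the 3. The 5 summed to 75.4 and 225 CPM after hemisection and to 14.9 CPM in the uninjured control library, with Mzb1 at 0 in all 7 libraries. Taking the mitochondrially encoded genes out of the counts left 14 members called. The part of the other RNAs in the result was not tested.

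The falls were larger among short genes. Genes spanning under 10 kb were called lower after hemisection against the uninjured control library in 10.69% of cases, with a median log2 fold change of −0.40, and 6 of 12 members in that class were called. The values were 5.275% and 6 of 10 members from 10 to 30 kb, 2.078% and 2 of 6 members from 30 to 100 kb, and 1.144% and 0 of 1 member above 100 kb. The called members had a median span of 13780 bases and the others that were tested one of 12880 bases. Gene span was looked at after the results were seen, and its part in them was not tested.

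In microglia, the resident immune cells of the cord, the summed level of the members differed little between libraries. The 32 members summed to 2655 and 2456 CPM in untraced replicates 1 and 2, 2658 CPM in the uninjured control library and 2608 and 2621 CPM after hemisection. In the same microglia, mitochondrially encoded transcripts were at 549 and 1183, 9576, and 1558 and 2079 CPM, with the uninjured control library highest. Single members of the microglia sum went both ways in that library. Atf6 was at 157 CPM there against 300.0 to 423 CPM in the other 4 libraries, while Calr was at 168 against 81.0 to 126 CPM, Fkbp2 at 83.4 against 12.1 to 52.4 CPM, Manf at 81.4 against 12.1 to 54.0 CPM and Dnajb9 at 36.3 against 8.00 to 12.1 CPM. The values of 12.1 CPM are all from hemisection replicate 1, whose 32 microglia held 82808 UMIs, so they rest on very few counts. The Dnajb9 values of untraced microglia rest on few counts as well. In oligodendrocytes the members summed to 1507 and 1170 CPM in untraced replicates 1 and 2, 2080 CPM in the uninjured control library and 1457 and 1689 CPM after hemisection. In neurons the sums were 1381 and 972, 2419, and 1069 and 994 CPM.

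**Figure D3:**
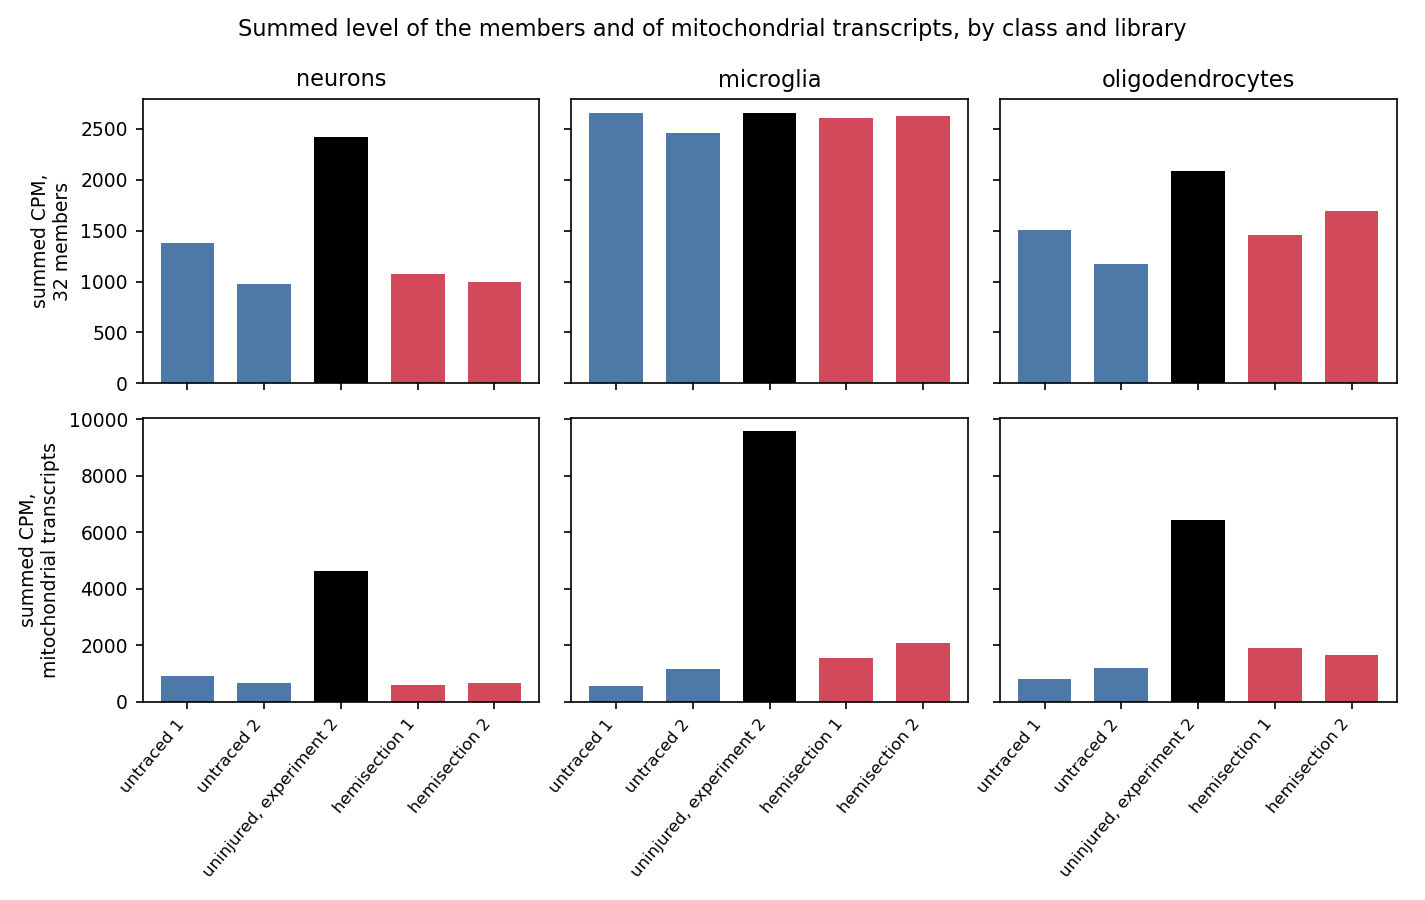
Summed CPM of the 32 members (top) and of the 13 mitochondrially encoded transcripts (bottom) in neurons, microglia and oligodendrocytes, with 1 bar per library of the untraced (blue), uninjured control (black) and hemisection (red) groups. The black bar is the highest for mitochondrial transcripts in each class, and for the members it stands out in neurons at 2419 CPM while the 5 microglia bars lie between 2456 and 2658 CPM.

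Of 28 members tested in microglia, 0 fell from the uninjured control library to hemisection, where 13.0% of all genes tested were called lower, and 1 was higher, where 7.34% were. In all 3 members had an unadjusted p under 0.05 in edgeR, and DESeq2 was not run on this class. The member called was the sensor gene Atf6, at 423 and 334 CPM after hemisection, 157 CPM in the uninjured control library and 300.0 and 344 CPM in untraced microglia. The uninjured control library was the low one, with log2 fold changes of 1.21 (95% interval 0.47 to 1.94, adjusted p = 0.0121) for hemisection against it and −1.09 (adjusted p = 0.0362) for it against untraced microglia. In that last comparison 1 member was called lower and 0 higher, where 1.9% and 9.98% of all genes tested were. Hemisection against untraced microglia gave 0.12 (95% interval −0.48 to 0.71), and 0 members were called in that comparison, where 7.67% of all genes tested were. The call of Atf6 was lost without hemisection replicate 2, which held 593 microglia against 32 in replicate 1. Fkbp2 at −1.29 (95% interval −2.28 to −0.30, adjusted p = 0.0552) was not called.

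In oligodendrocytes Fkbp2 was the 1 of 31 tested members that was called lower after hemisection against the uninjured control library, where 4.77% of all genes tested were called lower, and 0 were called higher, where 2.83% were. It was at 76.7 CPM in the uninjured control library, at 30.1 and 26.4 CPM after hemisection and at 21.7 and 16.3 CPM in untraced oligodendrocytes. The uninjured control library was again alone at the top, with log2 fold changes of −1.41 (95% interval −2.21 to −0.61, adjusted p = 0.0283) and, for it against untraced cells, 1.75 (adjusted p = 0.00284). The first of these calls was lost without either hemisection replicate. Calr was higher in the uninjured control library than in untraced oligodendrocytes by 1.60 (adjusted p = 0.00551), and these 2 members compare with 7.34% of all genes tested that were called higher. In that comparison 0 members were lower, where 1.87% of all genes tested were. Against untraced oligodendrocytes 0 members were called after hemisection, where 3.01% of all genes tested were, and 3 had an unadjusted p under 0.05. The smallest p was that of Ddit3, at 18.1 and 35.5 CPM after hemisection, 6.59 and 11.4 CPM in untraced cells and 13.3 CPM in the uninjured control library, a log2 fold change of 1.77 (95% interval 0.69 to 2.85, adjusted p = 0.0806). Both hemisection values lay above all 3 uninjured ones, without a call. That of replicate 1 came from 62 nuclei with 166061 UMIs and rests on few counts, so the gap to the uninjured values is within counting error there.

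The difference between classes was tested itself, as the effect in a glial class minus that in neurons for hemisection against the uninjured control library. The test takes neurons and glia of a library as one sample, which for the uninjured control library is not known. Microglia differed from neurons in 7 of 31 members, all in the direction of a smaller fall or none, where 2.98% of all genes tested were called in that direction. These were P4hb by 2.06, Hspa5 by 2.03, Calr by 1.71, Pdia6 by 1.62, Hsp90b1 by 1.58, Pdia3 by 1.44 and Canx by 1.23 on the log2 scale (adjusted p between 1.3e-04 and 0.0359). Oligodendrocytes differed in 4 of 31, P4hb by 2.21, Hspa5 by 1.51, Hsp90b1 by 1.23 and Calr by 1.05 (adjusted p between 1.4e-04 and 0.0465), where 2.16% of all genes tested were called. Hspa5, for one, was at 193 and 146 CPM in microglia after hemisection and 172 CPM in those of the uninjured control library. Without hemisection replicate 2, which held most glia of that group, 0 and 0 members were called in the tests of the class difference.

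**Figure D4:**
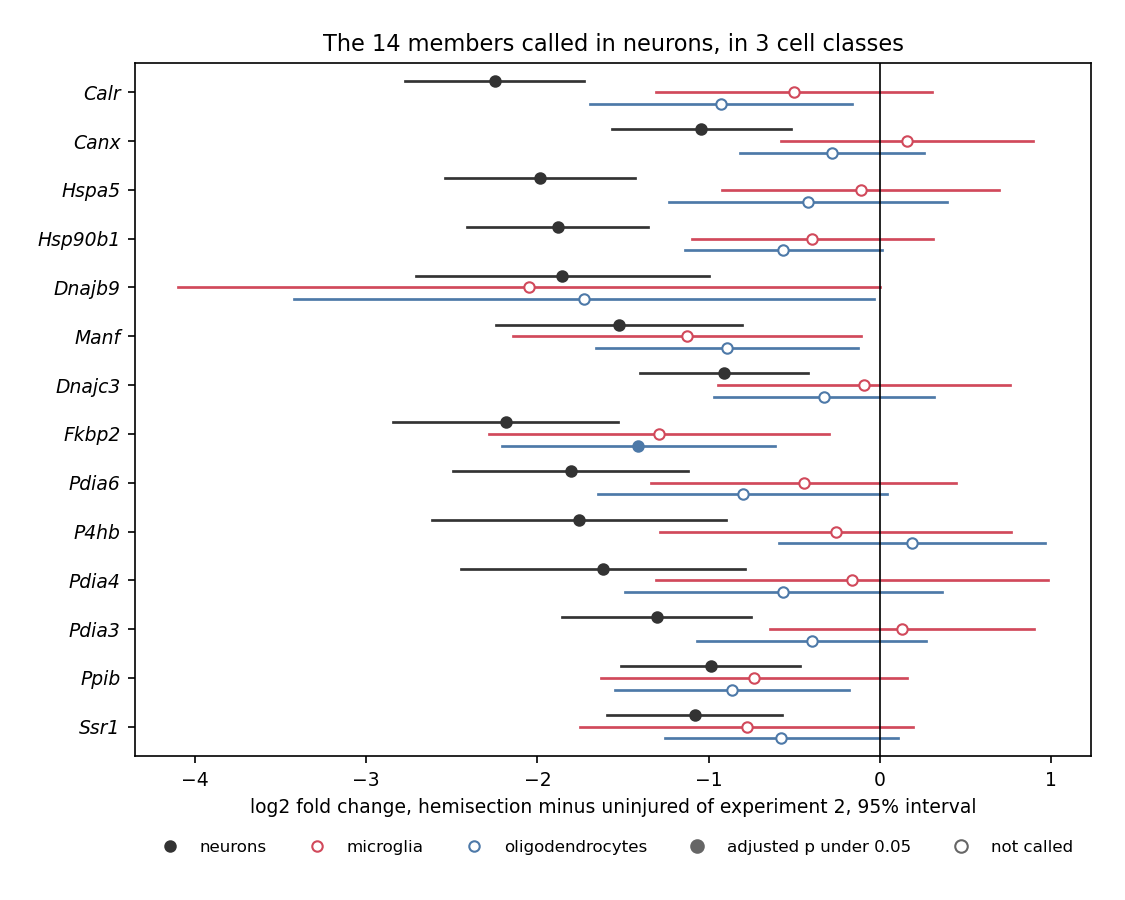
Log2 fold changes with 95% intervals for hemisection minus the uninjured control library of the 14 members called in neurons, in neurons (black), microglia (red) and oligodendrocytes (blue), with filled points for called values. Neuron points of Hspa5 and Calr lie at −1.99 and −2.25 and the microglia points at −0.11 and −0.50, while for Ppib and Dnajb9 the intervals of all 3 classes overlap.

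Neuron subtypes moved together. In 14 subtypes of the annotation with at least 20 nuclei in both libraries, the 32 members summed to 2128 to 2680 CPM in the uninjured control library and to 959 to 1306 CPM in hemisection replicate 1. All 14 were lower in hemisection replicate 1, by a ratio of 1.90 (VIL_V1_Sp8) to 2.43 (DI_Rorb), with a median of 2.22. Against untraced replicate 1, which had 7 of these subtypes, the ratio of untraced to hemisection was 1.04 to 1.48. Each value is from 1 library and carries no test.

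**Figure D5:**
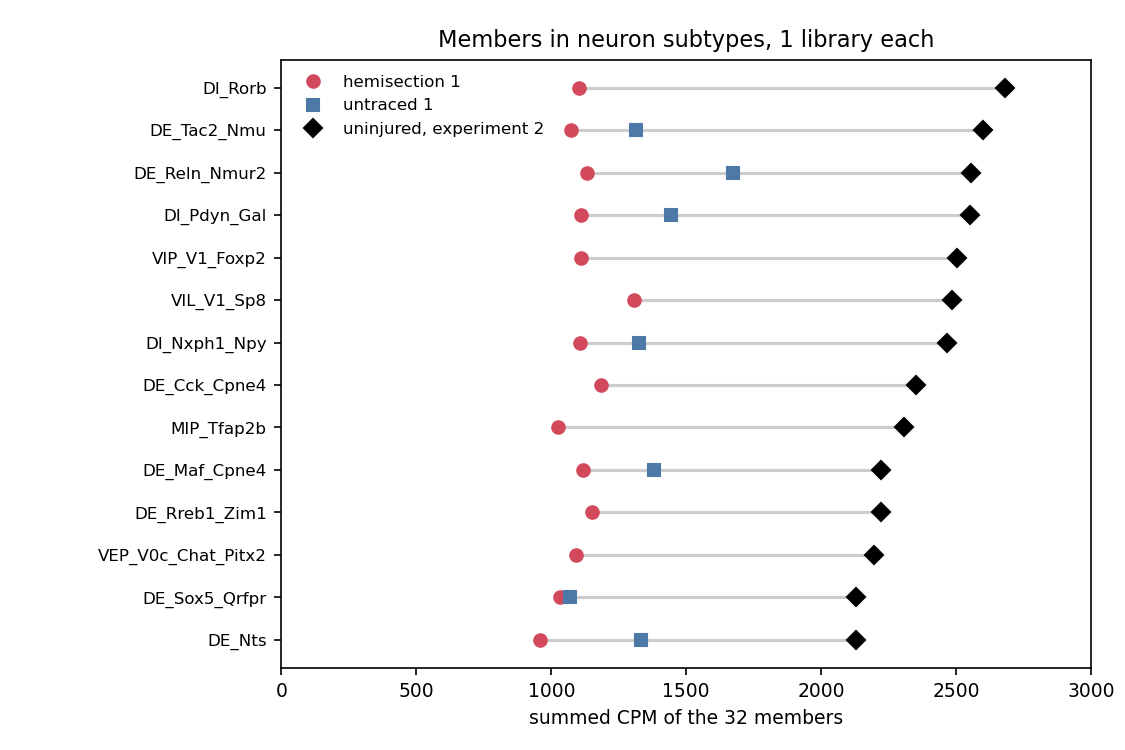
Summed CPM of the 32 members in 14 neuron subtypes, for hemisection replicate 1 (red circles), the uninjured control library (black diamonds) and, where it had 20 nuclei, untraced replicate 1 (blue squares). The red points lie between 959 and 1306 CPM and the black ones between 2128 and 2680 CPM, with no overlap, and the blue ones lie between 1069 and 1674 CPM.

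Among the subtypes, DE_Reln_Nmur2 had at least 20 nuclei in each library of experiment 2 and could be tested alone. There Hspa5 was at 335 CPM in the uninjured control library, at 78.9 and 83.1 CPM after hemisection and at 102 and 70.3 CPM in untraced nuclei. Of 21 members tested, 4 fell after hemisection against the uninjured control library, where 1.52% of all genes tested were called lower, and 0 rose, where 0.173% did. They were Calr at −2.07 (adjusted p = 0.00295), Hspa5 at −2.01 (adjusted p = 1.6e-04), Manf at −1.68 (adjusted p = 0.0387) and Hsp90b1 at −1.66 (adjusted p = 0.00167). Against untraced nuclei 0 were called, where 0.0518% of all genes tested were, with 1 at an unadjusted p under 0.05. Hspa5, Calr and Hsp90b1 were higher in the uninjured control library than in untraced nuclei, by 1.90, 1.91 and 1.39, where 0.57% of all genes tested were called higher. Hemisection replicate 2 held 20 nuclei of this subtype, and the 4 calls were lost without either hemisection replicate.

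Levels between subtypes and classes are a description, since these were defined from the same counts. In 22 subtypes of the uninjured control library the 32 members summed to 1364 CPM in the subtype named MN, the lowest, and to 3543 CPM in VIL_V0d_Bhlhe22, the highest, with a median of 2422 CPM. Canx had its lowest level, 107 CPM, in MN and its highest, 488 CPM, in VIL_V0d_Bhlhe22, and Hsp90b1 was at 93.3 CPM and 524 CPM in the same subtypes. Ern1 ran the other way, at 62.2 CPM in MN, its highest subtype, and 11.2 CPM in DE_Nts. Across the 6 classes of that library, vascular nuclei had the highest level of 17 members, among them P4hb at 97.0 CPM against 31.1 CPM in neurons, OPC of 5 members and microglia of 4. Neurons had the highest level of Fkbp2, Hyou1 and Manf, at 134, 33.5 and 116 CPM. Microglia had at least 20 nuclei in 5 libraries. The same 12 members were higher in all of these than in the neurons of any of the 7 libraries used above. Among them were Atf6 at 157 to 423 CPM against 82.7 to 104 CPM and Edem1 at 60.4 to 137 CPM against 10.1 to 27.0 CPM. The lowest of these Edem1 values in microglia was that of hemisection replicate 1, from 32 nuclei. Derl1 and Edem1 were also higher in every oligodendrocyte library with at least 20 nuclei than in any of those neuron libraries. The share of all genes separated in this way was not counted, so the numbers of members describe the set only.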

How the data were processed

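The authors deposited raw UMI counts of 19787 genes in 12447 nuclei as a matrix, beside an annotation that gives each nucleus its library, class and subtype. The builds mm10 and GRCm38 and the tools Cell Ranger 4.0.0 and Seurat 3 are named in the submitters' processing notes. The sources used here do not give filters, treatment of doublets, strand or use of intronic reads. All nuclei were kept, doublets were not called again, and 1 other annotation column was not used. Some subtypes are not reported here, and protein sequences were not used here.

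Counts were summed per library over neurons, over a class or over a subtype (at least 20 nuclei) and tested with edgeR 4.0.16 in R 4.3.3 (TMM, filterByExpr with minimum count 10 and minimum total 15, glmQLFit and glmQLFTest). All 8 libraries entered the neuron fit with a term for each group and 3 residual degrees of freedom, so that a lone library is taken to vary as much as replicated ones do. Calls were made where the p adjusted by Benjamini-Hochberg over all genes tested was under 0.05, and every adjusted p printed is of this test. Class differences came from a fit with library as a block, class, and class by group. Alternatives were DESeq2 1.42.0, other scaling and filters, other nuclei, the replicate block and leaving out each replicate. Of these fits only the edgeR fit of neurons was run on simulated counts, for hemisection against the uninjured control library. All libraries had the same spread there, so that run cannot show whether the lone library varies as replicated ones do.

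Sample titles give traced and untraced libraries the same animal number, so these pair the samples. Their differences between replicates correlated at 0.1814 across 5652 genes. The limit given for a level of 0 is 3 counts, and it covers counting error only, as do the 95% Poisson intervals. Coordinates and overlaps come from GENCODE and RefSeq on GRCm38.

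The members and gene lists were chosen with earlier results of these data known. Values per library are given for the 10 called members with the smallest p and for the 6 sensors and factors. Of other comparisons the called members are named, or the 3 with the smallest p, and of other lists up to 6 genes by smallest p. Canx and other members, mt-Nd2, the markers named and the levels by subtype were named beyond this rule after their values were seen.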

Additional observations from a re-analysis of the deposited data

Results flagged for a closer look

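The test of the class difference found that the change from the uninjured control library to hemisection differed between microglia and neurons in 7 members. The effect in microglia minus that in neurons was 2.03 for Hspa5 (−0.11 in microglia and −1.99 in neurons), 1.71 for Calr (−0.50 and −2.25), 1.58 for Hsp90b1 (−0.39 and −1.88) and 1.44 for Pdia3 (0.13 and −1.30). It was 1.62 for Pdia6 (−0.45 and −1.81), 2.06 for P4hb (−0.26 and −1.76) and 1.23 for Canx (0.16 and −1.04). These are log2 values, and the edgeR adjusted p of the difference lay between 1.3e-04 (Hspa5) and 0.0359 (Canx). The difference comes from a joint fit of both classes. Values in brackets come from the separate fit of each class, so subtracting them does not give exactly the difference printed.

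Between oligodendrocytes and neurons the same test found 4 members. The difference was 2.21 for P4hb (0.19 in oligodendrocytes and −1.76 in neurons), 1.51 for Hspa5 (−0.42 and −1.99), 1.23 for Hsp90b1 (−0.56 and −1.88) and 1.05 for Calr (−0.93 and −2.25). Adjusted p lay between 1.4e-04 (P4hb) and 0.0465 (Calr). Here too the values in brackets come from the separate fits and not from the joint one. In the glia beside these values, neuron markers summed to 957 CPM in microglia of the uninjured control library against 40.8 to 128 CPM in the other 4 libraries, and their part in the differences was not tested. Hemisection replicate 1 held 32 microglia and 62 oligodendrocytes, and replicate 2 held 593 and 765.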

How the results depend on the processing

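Counts of members called in neurons for hemisection against the uninjured control library were 14 in the setting reported, 4 with DESeq2 (of 11 of the 14 that had an adjusted p) and 8 in subtypes whose names start with DE. Leaving out 1 replicate gave 6 to 16, with 6 without hemisection replicate 1 and 7 without replicate 2. Calr, Hspa5, Hsp90b1 and Fkbp2 were called in every setting run. The 8 members of the uninjured control library against untraced neurons became 3 with DESeq2, 3 in the DE subtypes, and 5 to 9 without 1 replicate. Hemisection against untraced and traced against untraced gave 0 in every setting run.

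The 1 microglia call became 2 without TMM and 0 to 1 without a hemisection replicate. Leaving out a hemisection replicate also gave 0 for the oligodendrocyte call, 0 for the subtype DE_Reln_Nmur2, 0 to 7 for the class difference of microglia and 0 to 9 for that of oligodendrocytes. The replicate block gave 15 members for the first comparison, 11 for the uninjured control library against untraced, and 0 for the others, and changed no call of those. Experiment 2 alone, chosen after seeing the data, gave 20. Of 558 single values under alternatives 488 kept their side of the threshold, 69 lost the call and 1 gained it. Among the 488 were 3 values that changed sign and were not called in either setting. With total counts in place of TMM the median of all genes moved from 0.03 to −0.08. The causes of these differences were not tested. In the regenerating library 1 count is worth more than in the others, and 3 counts make 22.2 CPM.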

Other observations

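The regenerating library of experiment 3 held 135012 UMIs in 238 neurons, and 112 of them fell on the 32 members, a summed level of 830 CPM. There were 9 members with 0 counts, among them Dnajb9, Atf4, Herpud1 and Pdia6, each of which allows up to 22.2 CPM. The members with the most counts were Ppib with 16 (119 CPM, 95% Poisson interval 67.7 to 192), Manf with 14 (104 CPM, 56.7 to 174) and Dnajb11 with 12 (88.9 CPM, 45.9 to 155). All 12 counts of Dnajb11 and 7 of the 14 of Manf were in 1 nucleus each, so these counts are not independent and the intervals of both genes are too narrow. Hspa5 had 5 counts in 2 nuclei and Calr 6 in 4 nuclei, at 37.0 CPM (12.02 to 86.42) and 44.4 CPM (16.3 to 96.7). Of the 16 counts of Ppib, 5 were in 1 nucleus. The intervals of Hspa5, Calr and Ppib may therefore be too narrow as well. This library has no replicate and was not compared.

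The largest number of UMIs in 1 neuron of the uninjured control library was 19 of 3862 for Calr, 13 of 4898 for Hspa5 and 18 of 6225 for Hsp90b1. In hemisection replicate 1, 14 of 495 UMIs of Hspa5 were in 1 neuron, and in replicate 2, 5 of 41 UMIs of Calr were.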
